A study of Mus musculus with 12 samples.

Results

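Malat1, Neat1, Kcnq1ot1, Dleu2, Mir17hg, Mir22hg and Pvt1 are 7 long noncoding RNA genes whose transcripts act in the nucleus, carry microRNAs, or both. They were found by symbol among the 55421 Ensembl gene identifiers of the count table, after the identifiers had been matched to the GENCODE vM21 annotation, and all 7 had a row. The counts come from messenger RNA libraries of 2 cultured mouse lines. ID8 is a line of ovarian epithelium labelled C57BL6J wildtype, and PMJ2R is a macrophage line from peritoneal lavage whose genotype label adds the oncogenes v-raf and v-myc, so that any response of PMJ2R is that of an oncogene-carrying line. Each line was measured as control cells and after 6 h with 5 nM rebastinib, a kinase inhibitor, in 3 libraries per group, which makes 4 groups of female origin. Nothing in the labels tells whether the 3 libraries of a group came from separate cultures, and p-values therefore reflect the spread between these libraries alone, which may be technical.

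Long noncoding RNAs are transcribed and often spliced and polyadenylated like messenger RNAs, but they are not translated into a known protein. Malat1 gathers in nuclear speckles, the stores of splicing factors, and Neat1 is the RNA scaffold of paraspeckles, nuclear bodies built with the proteins NONO, SFPQ and PSPC1. Kcnq1ot1 is transcribed from the paternal chromosome against the gene Kcnq1 and silences imprinted genes around it. Dleu2, Mir17hg and Mir22hg are host transcripts, from which the Drosha and Dicer enzymes cut microRNAs that repress messenger RNAs by pairing through a short seed. Pvt1 lies beside the oncogene Myc and is often gained together with it in tumours.

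The microRNAs show what the host transcripts carry, and the 9 below are the ones usually named as the working strands. Sequences are from RefSeq on GRCm38.p6, written 5′ to 3′, with the seed (bases 2 to 8) in capitals. Dleu2 carries a pair with a shared seed, 6 lie in Mir17hg with 4 seeds among them, and 1 lies in Mir22hg.
mmu-miR-16-5p (Dleu2): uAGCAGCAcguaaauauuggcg
mmu-miR-15a-5p (Dleu2): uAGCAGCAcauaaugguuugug
mmu-miR-17-5p (Mir17hg): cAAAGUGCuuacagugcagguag
mmu-miR-20a-5p (Mir17hg): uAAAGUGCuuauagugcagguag
mmu-miR-18a-5p (Mir17hg): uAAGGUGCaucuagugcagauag
mmu-miR-19a-3p (Mir17hg): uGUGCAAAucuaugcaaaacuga
mmu-miR-19b-3p (Mir17hg): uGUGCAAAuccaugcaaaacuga
mmu-miR-92a-3p (Mir17hg): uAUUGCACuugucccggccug
mmu-miR-22-3p (Mir22hg): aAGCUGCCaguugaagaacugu
The 9 hairpin genes had 0 counts in all 12 libraries. For hairpins inside host exons a 0 does not show that the RNA was absent, since such reads cannot be assigned with certainty. The values below are those of the host transcripts, and mature microRNAs were not measured.

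On GRCm38, Malat1 (chr19:5795690-5802672, minus strand, 6.98 kb of exons) and Neat1 (chr19:5824708-5845478, minus strand, 20.77 kb) are neighbours. Kcnq1ot1 (chr7:143203458-143296549, minus strand) is annotated as a single exon of 93.09 kb inside Kcnq1, on the opposite strand. Dleu2 (chr14:61602839-61682373, minus strand) has 11.33 kb of exons in 15 annotated transcripts, and Mir17hg (chr14:115042879-115046727, plus strand) has 3.54 kb. Mir22hg (chr11:75461539-75466676, plus strand) has 1.92 kb of exons, of which 206 bases are shared with Tlcd2 on the same strand. Pvt1 (chr15:62037986-62378096, plus strand) spans 340111 bases with 7.0 kb of exons.

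Library totals ran from 19025504 to 27070556 counts, and the 7 genes together took 0.0459% to 0.137% of a library. The labels were checked against 12 macrophage markers, all at 1 CPM (counts scaled to library size) or more in PMJ2R. In ID8, 7 of these had 0 counts, while Csf1r, Cd68, Cd14 and Fcgr3 stood at 1 CPM or more. The 12 summed to 21.0 to 22.4 CPM in ID8 control and 3023 to 3132 CPM in PMJ2R control libraries. Of 12 ovarian and mesothelial markers, all were at 1 CPM or more in ID8 control cells and all under 1 CPM in PMJ2R. Rebastinib libraries gave more of their counts to a few abundant classes. Genes that overlap ribosomal RNA took 0.106% to 0.355% in ID8 control and 1.05% to 1.60% in ID8 rebastinib libraries, and 0.0927% to 0.172% against 5.63% to 5.99% in PMJ2R. Mitochondrial genes took 2.92% to 3.14% against 4.74% to 5.12% in ID8 and 3.50% to 4.25% against 5.51% to 5.88% in PMJ2R. With these classes and the ribosomal protein genes, 124 genes in all, left out of the fits, the same 5 genes in ID8 and all 7 in PMJ2R passed, with Malat1 at -0.93 in ID8 in place of -0.94 on the log2 scale. In bulk samples fewer cells of a kind and less RNA per cell cannot be told apart. The labels give no batch and no RNA quality value.

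Levels between genes were compared per length, as RPKM (CPM per kilobase of exon, scaled with the TMM factors of all 12 libraries). Malat1 stood highest in each of the 4 groups, at 96.7 ± 5.85 RPKM in ID8 control and 80.0 ± 7.09 in PMJ2R control cells (SD, n = 3). Neat1 was the second in each group, at 16.3 ± 2.63 RPKM in ID8 control and 5.08 ± 0.295 in PMJ2R control cells. Kcnq1ot1 stood lowest in each group, at 0.330 ± 0.0287 and 0.629 ± 0.0400 RPKM. The order between these differed by line: Mir22hg was the third in ID8 control cells, at 3.83 ± 0.530 RPKM, and Mir17hg the third in PMJ2R control cells, at 3.40 ± 0.327. Neighbours in this order whose libraries overlapped were Pvt1 and Dleu2 in ID8 control, Pvt1 and Mir22hg in PMJ2R control, and Mir22hg and Pvt1 in PMJ2R rebastinib libraries. With the longest transcript as length, Dleu2 stood at 2.06 and Pvt1 at 1.86 RPKM in ID8 control cells, so the place of these genes with many transcripts depends on the length used. Malat1 and Neat1 have 4 annotated transcripts each, and the longest covers all exons, so this alternative could not move them. Which of their transcripts the reads came from was not tested. How fully each long noncoding RNA enters a messenger RNA library was not tested either, so the order is that of the reads recovered.

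**Figure D1:**
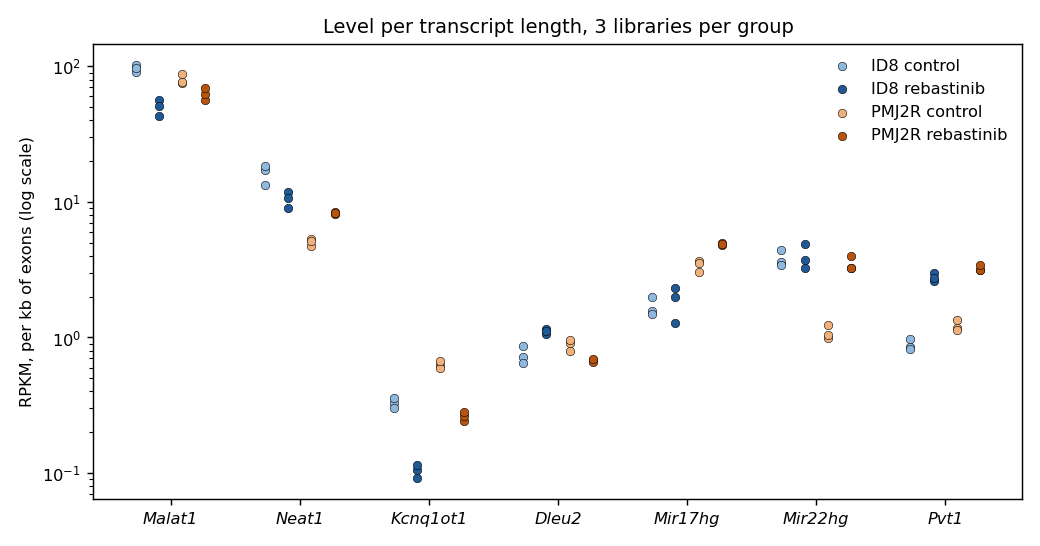
Level of the 7 long noncoding RNAs per kilobase of exon (RPKM, log scale) in each of the 12 libraries, coloured by group. Malat1 lies highest and Kcnq1ot1 lowest in each group.

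Rebastinib was then compared with control within each line by edgeR's quasi-likelihood test over all genes, with Benjamini-Hochberg adjustment at 0.05. In ID8, 5 of the 7 genes passed, 2 higher (Pvt1 and Dleu2) and 3 lower (Kcnq1ot1, Malat1 and Neat1). Of the 14829 genes tested there, 80.4% passed, 38.4% higher and 42.0% lower. In PMJ2R all 7 passed, 4 higher (Mir22hg, Pvt1, Neat1 and Mir17hg) and 3 lower (Kcnq1ot1, Dleu2 and Malat1). Of the 14010 genes tested there, 83.7% passed, 40.1% higher and 43.6% lower. With so many genes called, these counts are near the background, and the direction and size of each gene carry the description. A change of at least 2-fold was met by Pvt1 and Kcnq1ot1 in ID8, against 40.0% of genes tested, and by Pvt1, Kcnq1ot1 and Mir22hg in PMJ2R, against 41.3%. Trends of each library on transcript length and GC content were removed as an alternative in 2 versions. The planned version also moved the median of all genes, by 0.325 in ID8, 0.233 in PMJ2R and 0.536 between control cells, and a centred version, added after seeing this, keeps the median. Both are given where either changes a call or a direction. The median log2 fold change was 0.06 over the 7 genes and -0.07 over all genes in ID8, and 0.59 and -0.05 in PMJ2R.

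**Figure D2:**
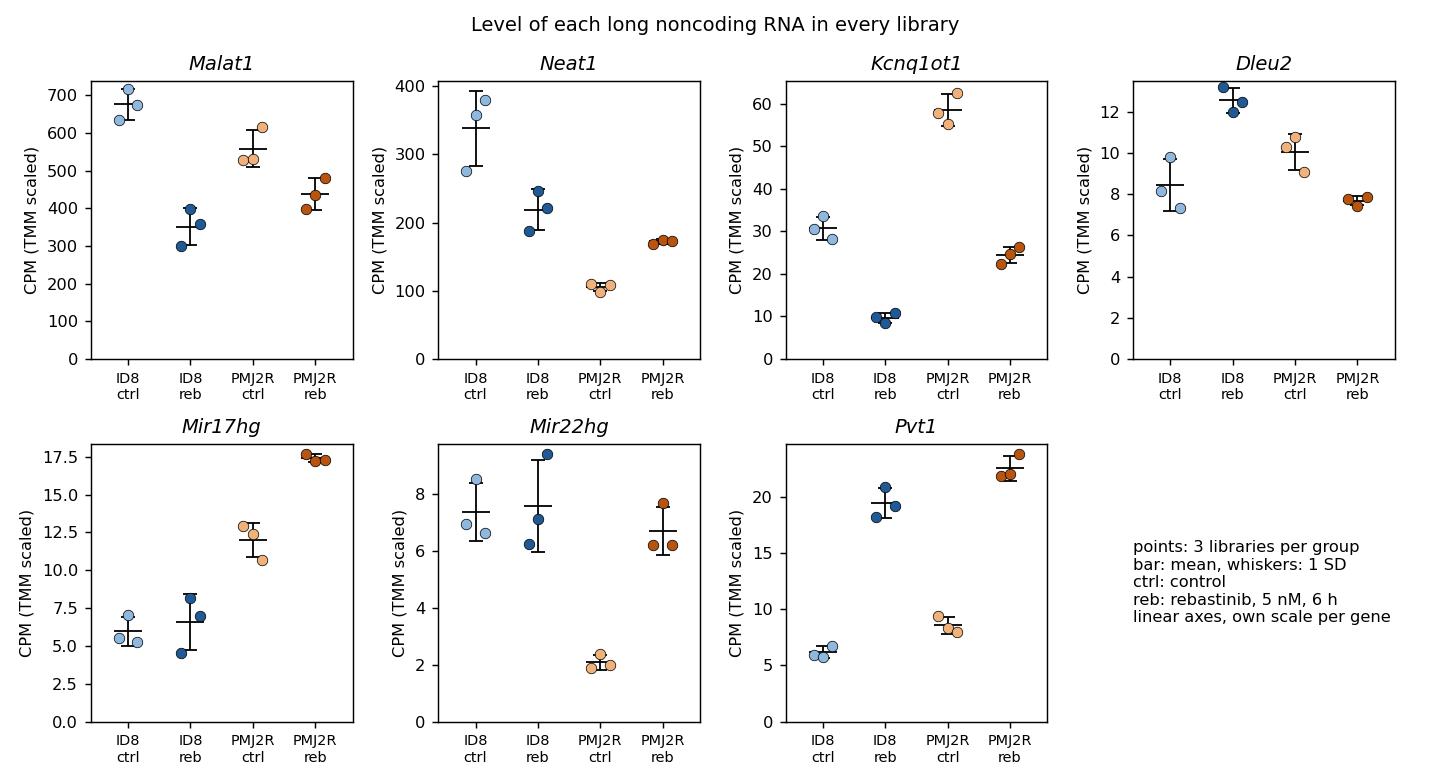
Level of each long noncoding RNA (CPM, TMM scaled, linear axes with their own scale) in the 3 libraries of each group, with the mean and 1 SD. Kcnq1ot1 falls and Pvt1 rises with rebastinib in both lines, while Neat1 and Dleu2 move in opposite directions in the lines (with length and GC trends removed the Neat1 change in ID8 is 0.06 as planned and -0.27 centred).

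Malat1 fell in both lines and further in ID8. It stood at 635, 717 and 675 CPM in ID8 control libraries and at 299, 397 and 358 CPM with rebastinib. The control libraries lay above all rebastinib libraries, and the log2 fold change was -0.94 (SE 0.0951, edgeR adjusted p = 4.22e-07). With length and GC trends removed it was -0.53 as planned and -0.86 centred, and passed in both. In PMJ2R it stood at 527, 532 and 615 CPM in control and 397, 435 and 481 CPM in rebastinib libraries, again without overlap. The log2 fold change there was -0.29 (SE 0.0644, adjusted p = 0.000615 by edgeR), and with those trends removed it did not pass as planned (-0.11, edgeR adjusted p = 0.198) and passed centred (-0.35, edgeR adjusted p = 0.00774).

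Neat1 rose in PMJ2R and fell in ID8. ID8 libraries held 276, 358 and 380 CPM in control and 188, 247 and 222 CPM with rebastinib, which do not overlap. The log2 fold change was -0.62 (SE 0.115, edgeR adjusted p = 0.000176). With length and GC trends removed it was 0.06 as planned (edgeR adjusted p = 0.659) and -0.27 centred, where the fall still passed (edgeR adjusted p = 0.0364). PMJ2R libraries held 110, 98.6 and 108 CPM in control and 169, 175 and 173 CPM with rebastinib, so that every rebastinib library lay above every control library. The rise in PMJ2R was 0.77 on the log2 scale (SE 0.0498, edgeR adjusted p = 7.62e-11), and it passed under each of 16 alternatives, at 0.21 to 1.09. Raw Neat1 counts in PMJ2R were 3029 to 3116 in control and 2668 to 2911 with rebastinib, in libraries of lower total, so the rise is one relative to other transcripts.

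The genes for proteins of the bodies that hold these RNAs were read beside them, as messenger RNA and not as protein. Of 18 genes for paraspeckle proteins, 11 were higher and 3 lower with rebastinib in ID8, and 12 were higher and 3 lower in PMJ2R, with a median log2 fold change of 0.47 in both lines. Over all genes tested, 38.4% were higher and 42.0% lower in ID8 and 40.1% and 43.6% in PMJ2R, with medians of -0.07 and -0.05, and the counts of this and later lists are to be read beside these. Rbm14, which encodes a protein needed to build paraspeckles, rose from 65.7 ± 1.25 to 478 ± 25.6 CPM in ID8 and from 89.1 ± 9.23 to 527 ± 15.3 CPM in PMJ2R (SD, n = 3). Its log2 fold changes were 2.87 and 2.63 (edgeR adjusted p = 1.69e-12 and 1.05e-16). Pspc1, for a core paraspeckle protein, rose by 1.57 on the log2 scale in ID8 (edgeR adjusted p = 1.87e-10). In PMJ2R it stood at 70.0 ± 1.57 CPM in control and 154 ± 2.96 CPM in rebastinib libraries. Cpsf7, for a subunit of a cleavage factor of messenger RNA 3′ ends, fell by 0.36 in ID8 and by 0.66 in PMJ2R (edgeR adjusted p = 0.000836 and 2.10e-09).
Of 19 genes for nuclear speckle proteins, 7 were higher and 8 lower in ID8 and 8 higher and 9 lower in PMJ2R. Srsf3, which encodes a splicing factor, fell from 227 ± 6.01 to 98.6 ± 6.02 CPM in ID8 and from 309 ± 21.5 to 68.9 ± 5.04 CPM in PMJ2R. Srsf11, for another factor of the same family, rose by 1.68 on the log2 scale in PMJ2R (edgeR adjusted p = 1.20e-15). In ID8 it stood at 138 ± 3.41 CPM in control and 231 ± 19.9 CPM in rebastinib libraries.

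Genes beside Malat1 and Neat1 did not share 1 direction. Frmd8 fell in both lines, with log2 fold changes of -2.64 in ID8 and -2.10 in PMJ2R (edgeR adjusted p = 6.20e-12 and 1.20e-13). Slc25a45, for a mitochondrial carrier, fell by 2.55 in ID8 and by 2.58 in PMJ2R on the log2 scale (edgeR adjusted p = 2.54e-10 and 5.44e-15). Dpf2, for a zinc finger protein, rose by 0.38 on the log2 scale in ID8 (edgeR adjusted p = 0.000219) and fell by 0.17 in PMJ2R (edgeR adjusted p = 0.00447).

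**Figure D3:**
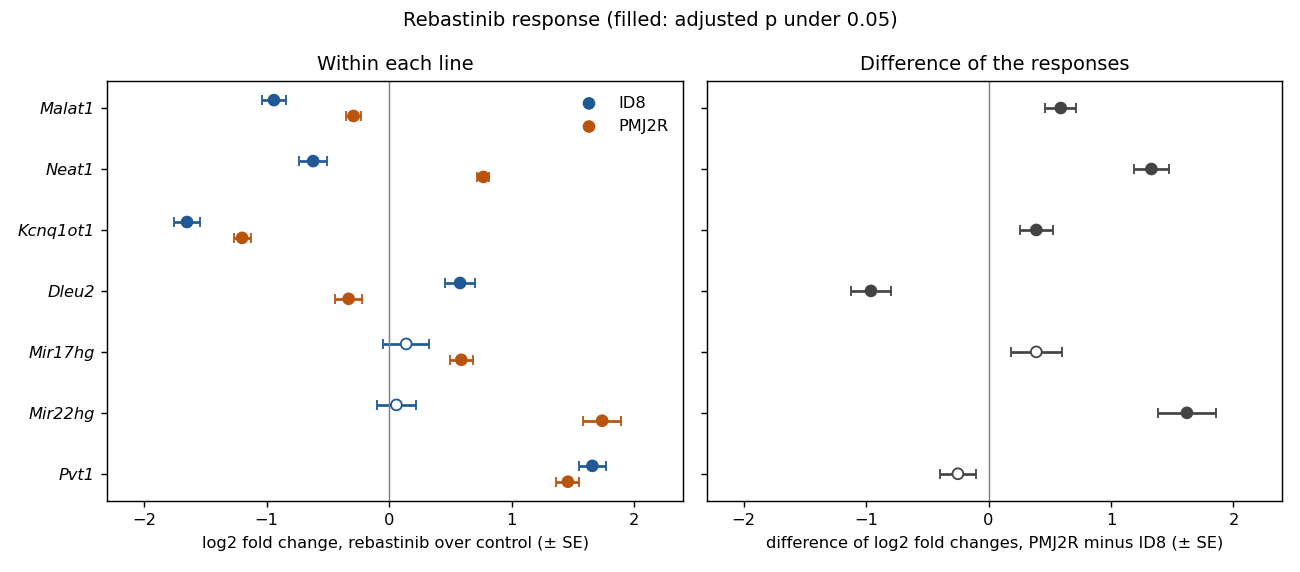
Left, log2 fold change of each long noncoding RNA, rebastinib over control, in ID8 and PMJ2R, and right, the PMJ2R value minus the ID8 value, each with its SE. Filled points passed adjusted p under 0.05, and Neat1 and Dleu2 have filled points on opposite sides of 0 (with length and GC trends removed, Neat1 in ID8 is at 0.06, not passing, as planned and at -0.27, passing, centred).

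Kcnq1ot1 fell in both lines. It stood at 30.5, 33.5 and 28.1 CPM in ID8 control and at 9.80, 8.52 and 10.8 CPM in ID8 rebastinib libraries. In PMJ2R it stood at 57.9, 55.2 and 62.6 CPM in control and at 22.4, 24.6 and 26.3 CPM with rebastinib. The groups did not overlap in either line, and the fall was 3.14-fold in ID8 and 2.30-fold in PMJ2R. The log2 fold changes were -1.65 (SE 0.110) and -1.20 (SE 0.0693), with edgeR adjusted p = 5.46e-09 and 1.54e-11. With length and GC trends removed the ID8 value was -0.48 as planned (edgeR adjusted p = 0.00124) and -0.80 centred, and the PMJ2R values were -1.04 and -1.28. Few tested genes come near the length of Kcnq1ot1. Only 3 in ID8 and 4 in PMJ2R, Kcnq1ot1 itself included, have exons of more than 50 kb, so that correction is extrapolated for Kcnq1ot1.

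The promoters of Kcnq1ot1 and Mir22hg are shown because one gene fell and the other rose by more than 2-fold in PMJ2R. The windows run from 250 bases before to 50 after the RefSeq start (GRCm38.p6), 5′ to 3′ on the gene's strand, for Kcnq1ot1 at chr7:143296498-143296797 (minus) and for Mir22hg at chr11:75461289-75461588 (plus). Capitals mark the letters CCAAT on either strand (ATTGG on the opposite one).
Kcnq1ot1: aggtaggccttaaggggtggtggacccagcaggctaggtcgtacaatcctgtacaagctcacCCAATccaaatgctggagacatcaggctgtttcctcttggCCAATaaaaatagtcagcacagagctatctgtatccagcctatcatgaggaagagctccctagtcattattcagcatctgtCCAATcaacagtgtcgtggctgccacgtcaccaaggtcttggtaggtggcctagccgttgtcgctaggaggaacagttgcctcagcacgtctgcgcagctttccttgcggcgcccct
Mir22hg: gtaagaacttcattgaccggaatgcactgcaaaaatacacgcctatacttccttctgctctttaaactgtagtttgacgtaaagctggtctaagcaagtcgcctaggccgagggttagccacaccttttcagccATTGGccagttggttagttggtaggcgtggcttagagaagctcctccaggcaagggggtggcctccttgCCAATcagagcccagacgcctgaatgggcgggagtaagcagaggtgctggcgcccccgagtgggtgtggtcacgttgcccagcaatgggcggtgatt
Kcnq1ot1 held 3 matches, at positions -188, -148 and -67 from the start, and Mir22hg held 2, at -116 and -47. Of 32817 promoter windows of this length, 37.4% hold CCAAT, and a match is a description of letters, not of binding. The E-box letters CACGTG were searched for on both strands as well, and neither window held them. The same was found for the AP-1 letters TGANTCA. Nor did the cyclic AMP response letters TGACGTCA occur in them.

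Genes near Kcnq1ot1 that were well expressed did not fall with it. Nap1l4, a nucleosome assembly factor gene of the imprinted domain, rose from 100 ± 3.49 to 168 ± 7.85 CPM in ID8 and from 120 ± 7.11 to 179 ± 6.76 CPM in PMJ2R (SD, n = 3). The log2 fold changes were 0.75 and 0.64, with edgeR adjusted p = 1.31e-07 and 4.47e-09. Cd81, for a tetraspanin, rose by 0.49 on the log2 scale in ID8 and by 0.16 in PMJ2R (edgeR adjusted p = 2.12e-05 and 0.0135). Kcnq1, the potassium channel gene that Kcnq1ot1 lies in, had 69 counts over the 12 libraries, and Cdkn1c, a cell cycle inhibitor gene that Kcnq1ot1 is known to silence, had 138. At such counts rebastinib was tested for both only in PMJ2R. Kcnq1 rose there from 0.331 ± 0.176 to 0.664 ± 0.0806 CPM (edgeR adjusted p = 0.0255), and Cdkn1c fell from 1.13 ± 0.258 to 0.558 ± 0.319 CPM (edgeR adjusted p = 0.0287). Raw Kcnq1 counts summed to 29 in PMJ2R control and 32 in PMJ2R rebastinib libraries, so its rise is one relative to other transcripts.

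Dleu2, the host of miR-15a and miR-16-1, rose in ID8 and fell in PMJ2R. ID8 control libraries held 8.16, 9.81 and 7.35 CPM and rebastinib libraries 13.2, 12 and 12.5 CPM. The rebastinib libraries were all higher, by 0.58 on the log2 scale (SE 0.123, edgeR adjusted p = 0.000572). Scaled by library totals alone, which moves the median of all genes by -0.432 in ID8, the rise was 0.15 and did not pass (edgeR adjusted p = 0.301). In PMJ2R, control libraries held 10.3, 10.8 and 9.07 CPM and rebastinib libraries 7.75, 7.44 and 7.88 CPM. The rebastinib libraries were all lower, with a log2 fold change of -0.33 (SE 0.112, edgeR adjusted p = 0.0127). The call was lost without control replicate 2 (-0.27, adjusted p = 0.0561 by edgeR), without rebastinib replicate 2 (-0.29, edgeR adjusted p = 0.0544) and with DESeq2 (adjusted p = 0.0625). Trim13, a ubiquitin ligase gene at the 3′ end of Dleu2 on the opposite strand, rose from 3.21 ± 0.367 to 8.01 ± 0.499 CPM in ID8 (edgeR adjusted p = 9.12e-07). In PMJ2R Trim13 stood at 33.3 ± 3.53 and 28.7 ± 0.847 CPM (edgeR adjusted p = 0.0869). Spryd7 and Rnaseh2b, also near Dleu2, rose in ID8 too, by 0.72 and 0.89 on the log2 scale (edgeR adjusted p = 2.13e-05 and 5.48e-07). In PMJ2R these 2 genes rose by 0.82 and 0.14 (edgeR adjusted p = 1.53e-08 and 0.0419), while Dleu2 fell.

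Mir17hg, the host of the miR-17-92 cluster, rose with rebastinib in PMJ2R and did not pass the test in ID8. PMJ2R control libraries held 12.9, 12.4 and 10.7 CPM and rebastinib libraries 17.7, 17.2 and 17.3 CPM, without overlap. The log2 fold change was 0.59 (SE 0.0955, edgeR adjusted p = 1.64e-05), and 0.03 (edgeR adjusted p = 0.745) with library totals alone, which move the median of all genes by -0.557 in PMJ2R. In ID8 the libraries overlapped, at 5.54, 7.06 and 5.28 CPM in control and 4.54, 8.16 and 6.99 CPM with rebastinib. The log2 fold change there was 0.14 (SE 0.190, edgeR adjusted p = 0.492), and it ran from -0.01 without rebastinib replicate 2 to 0.35 without rebastinib replicate 1, where it passed (edgeR adjusted p = 0.0491). The difference between the lines' responses did not pass (0.39, SE 0.209, edgeR adjusted p = 0.122), but it did without ID8 rebastinib replicate 2 (0.54, edgeR adjusted p = 0.0372) and with DESeq2 (0.52, adjusted p = 0.0477).

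Mir22hg, the host of miR-22, rose 3.34-fold in PMJ2R, from 1.89, 2.37 and 2.0 CPM in control to 6.22, 7.68 and 6.23 CPM with rebastinib. All rebastinib libraries were higher, and the log2 fold change was 1.74 (SE 0.158, edgeR adjusted p = 9.27e-09). In ID8 the libraries overlapped, at 6.95, 8.53 and 6.63 CPM in control and 6.26, 7.14 and 9.40 CPM with rebastinib (log2 fold change 0.06, SE 0.160, edgeR adjusted p = 0.724). The ID8 value changed sign in 6 of 16 alternatives. With length and GC trends removed it was -0.05 as planned (edgeR adjusted p = 0.758). Centred, it was -0.38, and this fall passed (edgeR adjusted p = 0.0379). In CPM, the PMJ2R rebastinib libraries overlapped those of ID8. Tlcd2, which shares exon sequence with Mir22hg on the same strand, rose with it in PMJ2R, by 2.72 on the log2 scale (edgeR adjusted p = 1.05e-06), and the counts of the 2 genes may not be fully separate. Wdr81, on the other side, fell from 48.5 ± 1.60 to 8.43 ± 1.46 CPM in PMJ2R, and Prpf8, for a core spliceosome protein, rose from 788 ± 42.7 to 1183 ± 19.2 CPM (SD, n = 3). In ID8, Tlcd2 rose by 0.57 and Wdr81 fell by 1.02 on the log2 scale (edgeR adjusted p = 0.0278 and 6.79e-07). Prpf8 did not pass there (0.12, edgeR adjusted p = 0.171).

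Pvt1 rose in both lines. It stood at 5.96, 5.77 and 6.77 CPM in ID8 control and at 18.2, 20.9 and 19.2 CPM in ID8 rebastinib libraries. In PMJ2R it stood at 9.42, 8.29 and 7.99 CPM in control and at 21.8, 22 and 23.8 CPM with rebastinib. The groups did not overlap in either line, and the rise was 3.15-fold in ID8 and 2.74-fold in PMJ2R. The log2 fold changes were 1.66 (SE 0.111) and 1.46 (SE 0.0938), with edgeR adjusted p = 6.01e-09 and 7.10e-11. These values exceeded those of 95.2% of genes tested in ID8 and 92.8% in PMJ2R, and the rise passed under each alternative in both lines. Myc, the transcription factor gene beside Pvt1, went the other way in ID8, from 124 ± 1.01 to 98.4 ± 7.94 CPM (log2 fold change -0.33, edgeR adjusted p = 0.000785). In PMJ2R, the line labelled with v-myc, Myc had 12, 33 and 19 counts in control and 1, 0 and 0 counts in rebastinib libraries. It was called lower there too (log2 fold change -4.75, SE 0.842, edgeR adjusted p = 4.76e-05). At so few counts the size of that fall is poorly known.

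**Figure D4:**
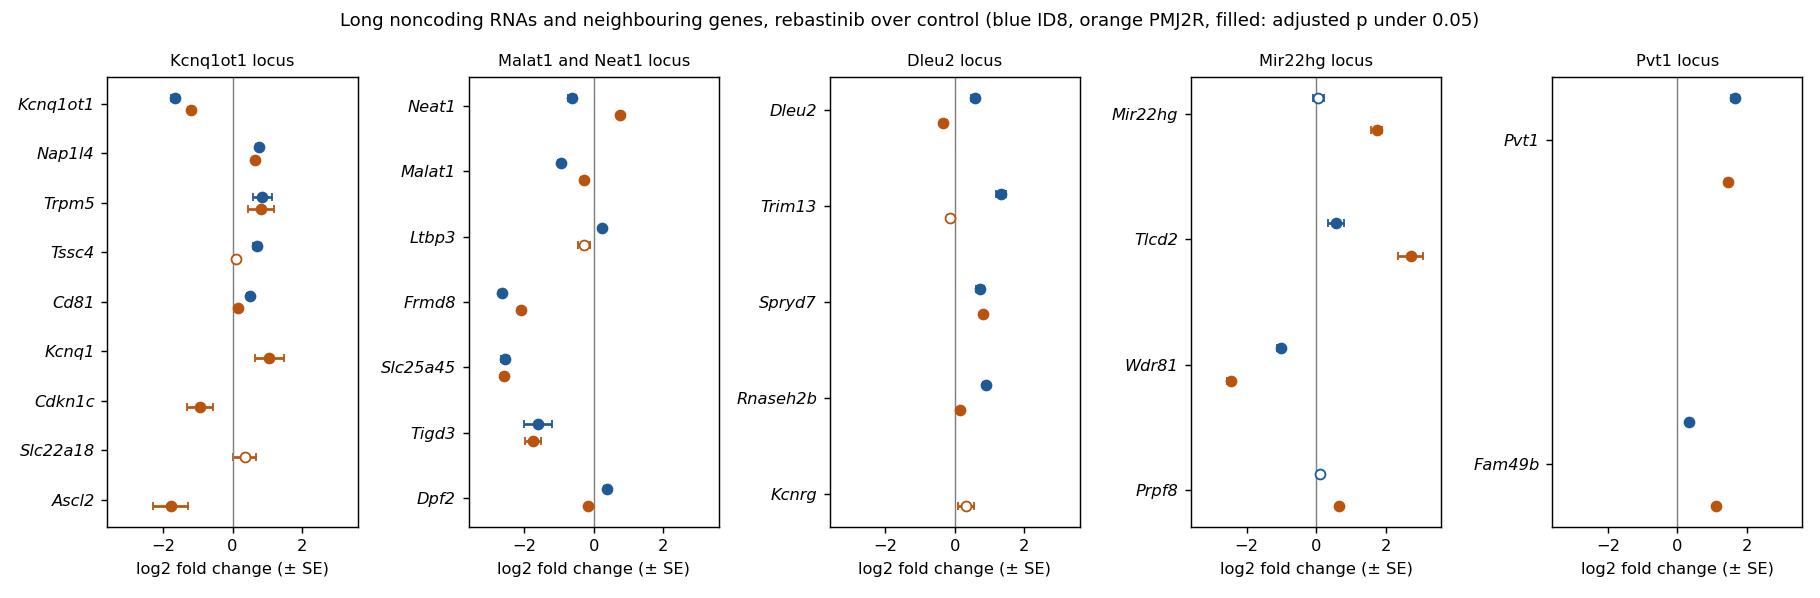
Log2 fold change, rebastinib over control, of long noncoding RNAs and of neighbouring genes in ID8 (blue) and PMJ2R (orange), with the SE. Filled points passed adjusted p under 0.05. Neighbours of Mir17hg are not drawn, nor is Myc, which was called lower in both lines while Pvt1 rose. Directions differ between the drawn genes of the same locus in all panels but that of Pvt1, which holds Pvt1 and Fam49b alone. In the Dleu2 panel they differ in PMJ2R only, and all drawn ID8 points lie above 0.

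Genes for the machinery that cuts and loads microRNAs moved in both directions. Of 15 such genes tested in ID8, 6 were higher and 5 lower, and of 16 in PMJ2R, 5 were higher and 9 lower, with medians of -0.07 and -0.34 on the log2 scale. Drosha, for the nuclear enzyme that frees hairpins from hosts such as Mir17hg, fell from 172 ± 1.91 to 121 ± 0.361 CPM in ID8 (log2 fold change -0.50, edgeR adjusted p = 3.65e-06). Ddx17, for a helicase that works with Drosha, fell by 1.67 on the log2 scale in ID8 and by 1.22 in PMJ2R (edgeR adjusted p = 9.87e-10 and 6.76e-14). Ago2, which encodes the silencing protein that carries mature microRNAs, rose by 0.77 and 0.80 (edgeR adjusted p = 4.90e-07 and 3.64e-11).
Among other noncoding microRNA hosts, 3 were tested in each line. Ftx, a host on the X chromosome, fell by 2.73 on the log2 scale in ID8 and by 1.98 in PMJ2R (edgeR adjusted p = 1.44e-08 and 6.72e-08). Mir99ahg rose by 1.05 in ID8 and fell by 1.46 in PMJ2R, with a difference of -2.56 between lines (edgeR adjusted p = 2.75e-09). Among other regulatory long noncoding RNAs, 1 rose and 6 fell among 9 in ID8, and 2 rose and 3 fell among 7 in PMJ2R. Tug1, a nuclear RNA, fell from 105 ± 7.06 to 26.0 ± 2.88 CPM in ID8 and from 79.7 ± 1.37 to 43.7 ± 1.86 CPM in PMJ2R.
Over the remaining long noncoding RNA genes of the annotation that were tested, 370 rose and 769 fell among 1610 in ID8, and 550 higher and 616 lower among 1540 in PMJ2R, with medians of -0.45 and -0.08 on the log2 scale.

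The difference of the response, PMJ2R minus ID8, was tested as an interaction over all 12 libraries. It uses the same libraries as the comparisons within lines. Of the 7 genes, 5 passed, 4 with a higher value in PMJ2R and 1 with a lower value, where 52.4% of the 16566 genes tested passed, 21.8% higher and 30.6% lower. Mir22hg differed most, by 1.62 on the log2 scale (SE 0.235, edgeR adjusted p = 3.30e-06). Neat1 differed by 1.33 (SE 0.140, edgeR adjusted p = 1.15e-07) and Malat1 by 0.59 (SE 0.125, edgeR adjusted p = 0.000354). Dleu2 differed by -0.96 (SE 0.167, edgeR adjusted p = 3.60e-05). With length and GC trends removed these 4 still passed, at 1.53, 0.61, 0.26 and -1.63 as planned and at 1.71, 0.79, 0.43 and -1.45 centred, in the same order.
For Kcnq1ot1 the difference was 0.39 (SE 0.134, edgeR adjusted p = 0.0168), with the ID8 fall the larger, but with length and GC trends removed it turned to -1.51 as planned and -1.33 centred (edgeR adjusted p = 3.33e-07 and 4.75e-07). Without ID8 control replicate 2, ID8 rebastinib replicate 2, PMJ2R control replicate 2 or PMJ2R rebastinib replicate 3 it was 0.32, 0.30, 0.34 and 0.33 and did not pass. For Pvt1 the difference was -0.25 (SE 0.146, edgeR adjusted p = 0.152), which does not show that the responses were equal, and with length and GC trends removed it passed as planned (-0.51, edgeR adjusted p = 0.00439) and did not centred (-0.34, edgeR adjusted p = 0.0559).

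PMJ2R control cells were then set against ID8 control cells with edgeR, at adjusted p under 0.05 and at least a 2-fold difference. Of the 7 genes, 2 passed, both lower in PMJ2R. Of the 15924 genes tested, 43.7% passed, 25.6% being lower. Neat1 was 3.46-fold lower in PMJ2R than in ID8 control cells (log2 difference -1.79, SE 0.0967, edgeR adjusted p = 7.41e-11), and Mir22hg was 3.79-fold lower (-1.92, SE 0.151, edgeR adjusted p = 3.66e-10). With length and GC trends removed the Neat1 difference did not pass as planned (-0.52, edgeR adjusted p = 0.0509) and passed centred (-1.08, edgeR adjusted p = 0.00376). Without the 2-fold condition 6 of the 7 genes passed, 3 in each direction, against 82.3% of genes tested (39.4% higher and 42.9% lower). Kcnq1ot1 and Mir17hg were higher in PMJ2R, by 0.82 (SE 0.0745) and 0.90 (SE 0.121) on the log2 scale. With length and GC trends removed, Kcnq1ot1 met the 2-fold condition in both versions (2.94 as planned, 2.38 centred). Mir17hg (1.26) and Pvt1 (1.05) met it as planned and not centred (0.70 and 0.49), and Mir17hg also met it without ID8 control replicate 2 (1.03). Dleu2 differed by 0.14 (SE 0.116, edgeR adjusted p = 0.263). Malat1 differed by -0.39 (SE 0.0705), and with length and GC trends removed by 0.24 as planned, where all genes moved up, and by -0.32 centred (edgeR adjusted p = 5.69e-05).

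Over all groups, Kcnq1ot1 had the widest range, 6.04-fold from PMJ2R control to ID8 rebastinib cells, and no neighbouring groups overlapped. Pvt1 and Neat1 also had 4 groups apart, over 3.65-fold and 3.20-fold. Dleu2 had the narrowest range, 1.63-fold, and its ID8 control libraries overlapped those of PMJ2R, with and without rebastinib. For Malat1 the groups with rebastinib overlapped between the lines.

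Reads of a gene inside a member's exons cannot be assigned to either gene with certainty, and the strand setting of the counting is not given in the sources used here. All 13 annotated genes lying wholly within exons of these 7 genes on the same strand had 0 counts, while all 8 on the opposite strand had counts, from 5 to 20352 over the 12 libraries. The highest was Gm37376, an unclassified gene model of 453 bases on the strand opposite to Malat1, which is described here after its values were seen. Its counts were 10.9%, 12.4% and 12.9% of those of Malat1 in ID8 control and 30.7%, 21.6% and 23.4% in ID8 rebastinib libraries. In PMJ2R they were 13.6%, 11.7% and 12.3% in control and 12.8%, 12.8% and 12.5% with rebastinib. The ID8 groups did not overlap, with an exact two-sided permutation p = 0.1, the smallest that 3 against 3 libraries allow, and in PMJ2R p = 0.9 by the same exact test. Gm37376 itself stood at 81.7 ± 10.9 and 87.2 ± 4.32 CPM in ID8 (edgeR adjusted p = 0.330), while Malat1 fell.

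**Figure D5:**
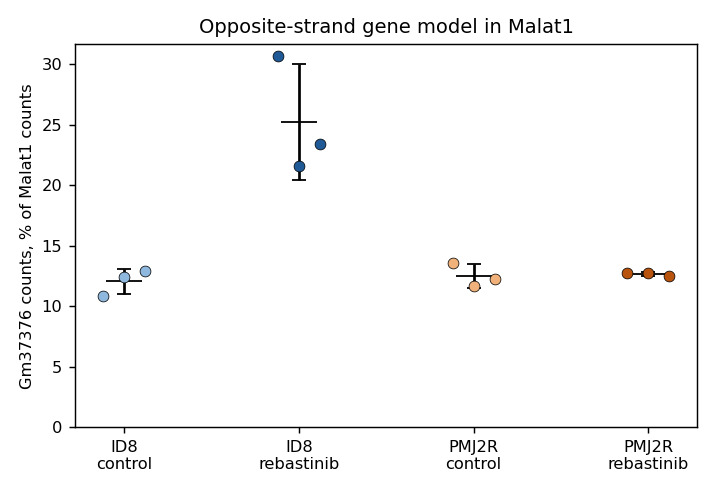
Counts of Gm37376, on the strand opposite to Malat1, as a percentage of Malat1 counts in each library (linear axis from 0), with the mean and 1 SD of 3 libraries. The ID8 rebastinib libraries lie at 21.6% to 30.7%, above the other 9 libraries.

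The genes with the pattern most like each long noncoding RNA were taken by Pearson's correlation of log2 CPM over the 12 libraries, among 9761 named genes at 5 CPM or more. This is a description, since the libraries share 4 groups. Pvt1 was most like Haus3 (r = 0.995), a spindle-assembly gene that stood at 32.2 and 81.3 CPM in ID8 control and rebastinib libraries and at 40.8 and 87.8 CPM in PMJ2R. Kcnq1ot1 was most like Rabl6 (r = 0.994), Mir22hg like Evi5 (r = 0.989), and Mir17hg like Ccng1 (r = 0.987). Neat1 was most like Me2 (r = 0.975), a mitochondrial malic enzyme gene, at 421, 275, 144 and 222 CPM in ID8 control, ID8 rebastinib, PMJ2R control and PMJ2R rebastinib libraries. Malat1 was most like Nsdhl (r = 0.964), a cholesterol synthesis gene, and Dleu2 like Ska3 (r = 0.939), a gene of chromosome attachment in mitosis. Between the 7 genes themselves r ran from -0.85 for Malat1 and Pvt1 to 0.81 for Neat1 and Mir22hg.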

How the data were processed

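Messenger RNA libraries of ID8 and PMJ2R cells were counted per gene. The deposited values were raw counts, whole numbers per Ensembl gene, and build GRCm38 with the tools STAR 2.6.1c, featureCounts, FastQC and DESeq2 is named in the submitters' processing notes. Annotation and strand setting of the counting were not given in the sources used here. Identifiers were matched to GENCODE vM21 (GRCm38), and 181 without a symbol held 0.00261% of counts. Groups came from the sample titles.

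Comparisons were fitted over the whole table with edgeR 4.0.16 in R 4.3.3 (quasi-likelihood, TMM, default expression filter, robust dispersion). The SE is the log2 fold change divided by the square root of F. CPM and RPKM use TMM factors over all 12 libraries, while each fit uses factors of its own libraries. Alternatives were DESeq2 1.42.0, limma-voom (limma 3.58.1), RLE size factors, library totals, 124 abundant genes removed, no filter, a mean of 5 CPM, length and GC trends removed (splines with 5 degrees of freedom), the replicate block and each library left out. The genes named are the 7 members, up to 2 higher and 2 lower genes of smallest p per list, detected neighbours, and the 3 genes most like each member. The members and lists were chosen with earlier results of these data known.

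Replicate pairs had a chi-square per degree of freedom of 1.67 to 21.41, so none agreed within sampling noise. The fits were tested on simulated data.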

Additional observations from a re-analysis of the deposited data

Results flagged for a closer look

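The rebastinib response differed between the lines for 5 of the 7 genes by edgeR's interaction test, given as PMJ2R minus ID8 on the log2 scale. The values were 1.62 for Mir22hg, 1.33 for Neat1, 0.59 for Malat1, 0.39 for Kcnq1ot1 and -0.96 for Dleu2, in a comparison where 52.4% of the genes tested passed.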

How the results depend on the processing

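Of 489 alternative values of the 28 fold changes, 455 kept their direction and their side of the threshold, 12 lost the call, 10 gained it and 12 changed sign. Removal of length and GC trends as planned, which moved the median of all genes, gave 0.06 for Neat1 and -0.05 for Mir22hg in ID8, 0.24 for Malat1 between control cells, where 4 of the 7 genes were then called, and -1.51 for the Kcnq1ot1 difference. After these values were seen, a version with each library's trend centred at its median, which keeps the TMM level, was added. It kept the calls and directions of Neat1 in ID8 (-0.27), Malat1 in PMJ2R (-0.35), and Malat1 (-0.32) and Neat1 (-1.08) between control cells. It gave -0.38 for Mir22hg in ID8 and -1.33 for the Kcnq1ot1 difference. Both of these changed in sign and passed (edgeR adjusted p = 0.0379 and 4.75e-07). Both versions are given because the centred one was chosen with the planned result known, and which is right was not tested. Library totals gave -0.29 for Mir17hg and -0.37 for Mir22hg in ID8. A mean of 5 CPM gave -0.03 for Mir22hg in ID8, left it untested in PMJ2R, and called 3973 genes between control cells in place of 6966. That filter tests fewer genes (in ID8 10479 in place of 14829), so the 2 counts do not share a base. Leaving out 1 library gave -0.01 to 0.35 for Mir17hg and -0.12 to 0.19 for Mir22hg in ID8. Same-numbered replicates correlated at -0.167 to 0.066, which shows no pairing by number. It cannot tell whether same-numbered libraries were handled together, on which the labels are silent. With the replicate block, 11418 genes in ID8, 11726 in PMJ2R, 6958 between control cells and 8419 for the difference were called, and no call of the 7 genes changed. Levels per length moved by more than 1 SD for 24 of 28 values with library totals and for 8 of 28 with the longest transcript. Dleu2, Mir17hg, Mir22hg and Pvt1 had 52 to 439 counts a library, which limits their precision, and Mir22hg in PMJ2R control cells had 52 to 75.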
